A study of Homo sapiens with 6 samples.

Results

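The latent TGF-beta binding proteins (LTBPs) and the fibrillins form one family of large secreted proteins, and 6 of its genes were followed here: *LTBP1*, *LTBP2*, *LTBP3*, *LTBP4*, *FBN1* and *FBN2*. They were chosen by name, as the rows of the deposited count table that carry these symbols, and each symbol matched 1 of the 60663 genes in the table. Fibrillins assemble into the microfibrils of the extracellular matrix, on which elastic fibres are laid down. LTBPs attach to these microfibrils. LTBP1, LTBP3 and LTBP4 also bind the latent form of TGF-beta, a cytokine that drives matrix production in fibroblasts, and so hold it in the matrix until it is released. LTBP2 does not bind latent TGF-beta and is known as a partner of fibrillin-1 in microfibrils.

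CCD18Co, an established line of fibroblasts from human colon, was transfected for 6 h with siRNAs against *LTBP2* (siLTBP2) or with siRNAs of a non-targeting sequence (siNT), and cells were frozen 48 h after transfection. Each group held 3 RNA sequencing libraries, numbered 1 to 3, and all 6 came from the same line. Nothing in the sources used here ties the libraries to separate cultures, so that p-values measure the spread between these libraries, which may be technical. With 1 siRNA reagent for each group, the loss of *LTBP2* and any other action of that reagent cannot be told apart.

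The counts of a library summed to 44663424 at the lowest and 53576899 at the highest. The lowest count of any member in any library was 283, for *LTBP2* in siLTBP2, so counting error was small beside the spread between libraries. Levels are given as CPM, the count of a gene scaled to the library's total count, after TMM normalization between libraries. Of 12 fibroblast markers, 11 were above 1 CPM on average, and their summed level was 11174 to 14491 CPM in siNT against 12043 to 16564 CPM in siLTBP2. *POSTN* was the marker below 1 CPM. The epithelial markers *KRT20* and *LGALS4* were at 0 in every library. The sum of 6 smooth muscle markers was higher in siLTBP2, at 388 to 426 CPM against 229 to 261 CPM in siNT, mostly through *SMTN* (194 CPM in siNT against 335 CPM in siLTBP2 on average). The list was mixed, since *ACTG2* went from 41.2 to 61.1 CPM and *SYNPO2* from 11.1 to 5.51 CPM, while the defining markers *MYH11*, *DES* and *CNN1* stayed under 0.1 CPM. The sum of 8 epithelial markers was 9.56 to 11.7 CPM in siNT against 12.7 to 13.8 CPM in siLTBP2, of which *KRT8* made up the larger part. Both sums moved with the group, and their part in the results was not tested.

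All 6 genes lie on different chromosomes of GRCh38. *LTBP1* (ENSG00000049323) is on the plus strand of chromosome 2, from 32946953 to 33399509. *LTBP2* (ENSG00000119681) is on the minus strand of chromosome 14, from 74498183 to 74612378. *LTBP3* (ENSG00000168056) is on the minus strand of chromosome 11, from 65538559 to 65558930. *LTBP4* (ENSG00000090006) is on the plus strand of chromosome 19, from 40592883 to 40629818. *FBN1* (ENSG00000166147) is on the minus strand of chromosome 15, from 48408313 to 48645721, and *FBN2* (ENSG00000138829) on the minus strand of chromosome 5, from 128257909 to 128659185. The genes differ in size and in base composition. The canonical transcripts of the fibrillins, with 66 exons in *FBN1* and 65 in *FBN2*, are 11609 and 10927 bases long, and those of the LTBPs range from 4833 bases in *LTBP3* to 8460 bases in *LTBP2*. The share of G and C was 67.7% in *LTBP3*, 67.2% in *LTBP4*, 57.2% in *LTBP2*, 51.3% in *LTBP1*, 48.5% in *FBN2* and 46.7% in *FBN1*.

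The proteins are built of repeated cysteine-rich modules, and the transcripts share short stretches of sequence. The longest exact run that the *LTBP2* transcript shares with each of the others was 25 bases in *LTBP4*, 22 bases in *LTBP1*, and 17 bases in each of *LTBP3*, *FBN1* and *FBN2*. The fibrillin transcripts share a run of 29 bases with each other. The runs of *LTBP2* with *LTBP4* and with *LTBP1* are shown as the longest exact matches of the targeted gene to its relatives on canonical transcripts. Stretches with mismatches were not searched, so how alike reads of these genes are was not measured. The runs are printed 5′ to 3′ on the transcript strand, with the shared run in capitals. All lie in coding sequence. The run shared with *LTBP4* crosses an exon junction in both genes, from exon 20 of *LTBP2* and from exon 13 of *LTBP4*. The run shared with *LTBP1* is in exon 27 of *LTBP2* (chr14:74506741-74506762, minus strand) and in exon 25 of *LTBP1* (chr2:33342899-33342920, plus strand).
LTBP2, run shared with LTBP4: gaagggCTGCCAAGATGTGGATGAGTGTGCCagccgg
LTBP4, run shared with LTBP2: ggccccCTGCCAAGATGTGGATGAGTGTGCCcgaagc
LTBP2, run shared with LTBP1: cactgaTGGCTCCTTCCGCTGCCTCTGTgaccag
LTBP1, run shared with LTBP2: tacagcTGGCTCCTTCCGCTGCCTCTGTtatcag

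A word of 7 bases, GCACCCA, was looked up in the members because an earlier search of these same data had picked it out in the 3′ UTRs of genes that were lower in siLTBP2. The search ran on the transcript strand only. *LTBP2* holds 4 copies, 3 in its coding sequence and 1 in its 3′ UTR. *LTBP3* and *LTBP4* hold 2 copies each and *FBN1* holds 1, all in coding sequence, and there is none in the canonical transcripts of *LTBP1* and *FBN2*. Over the annotation, 23.0% of 20457 canonical coding transcripts hold the word, 13.0% hold it in the coding sequence, and 10.6% of 19571 hold it in the 3′ UTR. Among the 1339 coding sequences at least as long as that of *LTBP3*, 39.0% hold it. The sites of the 3 members that were lower in siLTBP2, described further on, are shown with the word in capitals. The site of *FBN1*, which was higher in siLTBP2, is in exon 26 (chr15:48488446-48488468) and is not printed. Since the word was picked from genes lower in siLTBP2 in these data, its presence in lower members is no test of it. A match is a description of the letters. The sequences of the siRNAs were not used here, and a part of the word in any result was not tested.
LTBP2, exon 4 (chr14:74555533-74555555): gagagatgGCACCCAacaggcgg
LTBP2, exon 7 (chr14:74551106-74551128): ccccagcaGCACCCAggcctcga
LTBP2, exon 29 (chr14:74505025-74505047): atgctgctGCACCCAgggcgcta
LTBP2, 3′ UTR in exon 36 (chr14:74500047-74500069): gggatacaGCACCCAtctacaaa
LTBP3, exon 5 (chr11:65553164-65553186): gcttaacaGCACCCActgccagg
LTBP3, exon 7 (chr11:65552331-65552353): cagtgccaGCACCCActgaccac
LTBP4, exon 13 (chr19:40611156-40611178): ggatgaatGCACCCAgagcccag
LTBP4, exon 30 (chr19:40629492-40629514): cgggattcGCACCCAcgcaccag

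The comparison of siLTBP2 with siNT asks which transcripts differ once *LTBP2* is targeted in fibroblasts. *LTBP2* itself was counted 1155, 1141 and 1143 times in siNT libraries 1 to 3 and 283, 407 and 316 times in siLTBP2. That is 25.0, 23.1 and 21.2 CPM against 6.49, 8.61 and 6.00 CPM. The groups were far apart, with the highest siLTBP2 library well below the lowest siNT library. The level in siLTBP2 was 30.4% of that in siNT, with a 95% interval from 24.3% to 38.1% (log2 fold change -1.72, SE 0.15, adjusted p = 6.6e-05 by edgeR's quasi-likelihood test). In bulk RNA, fewer cells that express a gene and less RNA of it per cell cannot be told apart, here and for the other members.

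Of the 6 members, all were abundant enough to be tested and 5 passed an adjusted p of 0.05, where 19.3% of the 16920 genes tested did, 9.76% as higher and 9.51% as lower in siLTBP2. Apart from the targeted gene, 4 of the other 5 passed. *LTBP1* and *FBN1* were higher in siLTBP2, *LTBP3* and *LTBP4* were lower, and *FBN2* did not pass. The 5 genes that passed also had no overlap between the 3 libraries of siLTBP2 and the 3 of siNT, as had 37.0% of all genes tested (18.7% higher and 18.3% lower in siLTBP2). The study calls a gene deregulated below an adjusted p of 0.01 when the fold change is also over 2. *LTBP2* was the only member past these limits, where 2.57% of all genes were past them, 1.29% higher and 1.27% lower. These shares, 434 genes in all, are from the quasi-likelihood test. By the likelihood ratio test that the study used, 619 genes were past the limits.

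**Figure D1:**
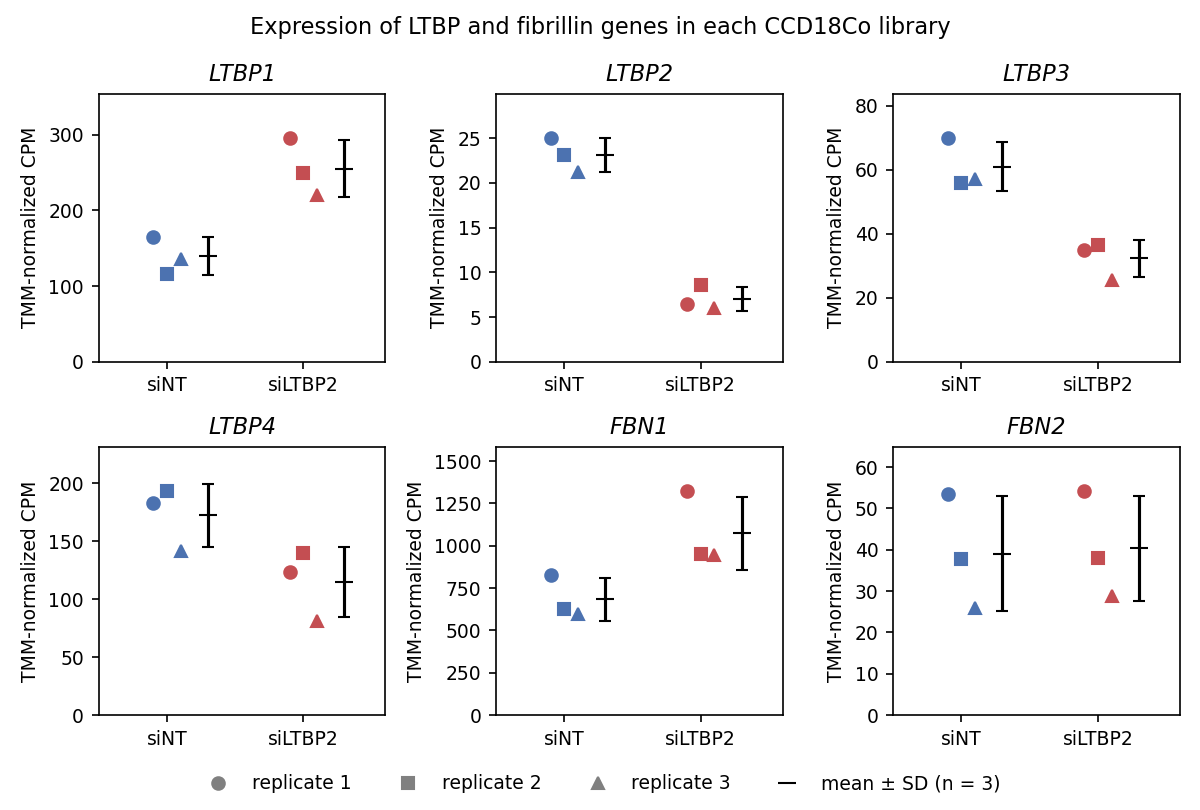
Level of each of the 6 members in each library (TMM-normalized CPM, 1 panel per gene), with siNT and siLTBP2 libraries as points and the group mean ± SD. Groups lie apart in 5 panels, higher in siLTBP2 for *LTBP1* and *FBN1* and lower for *LTBP2*, *LTBP3* and *LTBP4*, and overlap for *FBN2*.

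*LTBP1*, which anchors latent TGF-beta to fibronectin and fibrillin in the matrix, was higher after transfection with siLTBP2. Its level was 165, 116 and 136 CPM in siNT libraries 1 to 3 and 295, 250 and 220 CPM in the siLTBP2 libraries. Every siLTBP2 library was above every siNT library. The mean rose from 139 ± 25.0 to 255 ± 37.7 CPM (SD, n = 3), a 1.83-fold change (log2 fold change 0.87, SE 0.14, 95% interval 0.56 to 1.19, adjusted p = 0.0020 by edgeR's quasi-likelihood test). Among all genes tested, 96.9% had a lower log2 fold change.

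*LTBP3*, another carrier of latent TGF-beta, was lower. It stood at 69.9, 56.0 and 57.2 CPM in siNT against 34.9, 36.5 and 25.7 CPM in siLTBP2, so that the highest siLTBP2 library was well under the lowest siNT library. The mean was 61.0 ± 7.70 CPM in siNT against 32.4 ± 5.83 CPM in siLTBP2 (SD, n = 3), or 53.0% of the siNT level (log2 fold change -0.92, SE 0.14, 95% interval -1.22 to -0.61, adjusted p = 0.0014 by edgeR's quasi-likelihood test).

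*LTBP4*, whose product binds latent TGF-beta and takes part in elastic fibre assembly, was lower by a smaller amount and with more spread. Its level was 182, 193 and 141 CPM in siNT libraries 1 to 3 and 123, 140 and 80.9 CPM in siLTBP2. The highest siLTBP2 library was just under the lowest siNT library, at 140.1 against 141.0 CPM. The mean was 172 ± 27.3 CPM in siNT against 115 ± 30.5 CPM in siLTBP2 (SD, n = 3), or 66.7% of the siNT level (log2 fold change -0.58, SE 0.18, 95% interval -0.99 to -0.18, adjusted p = 0.046 by edgeR's quasi-likelihood test). This call is the weakest of the 5. It was lost without siNT replicate 1 (log2 fold change -0.54, adjusted p = 0.11), siNT replicate 2 (-0.49, adjusted p = 0.16), siLTBP2 replicate 1 (-0.64, adjusted p = 0.059) or siLTBP2 replicate 3 (-0.38, adjusted p = 0.065), all from the same test. The direction was the same in each of these fits, and in the 2 others that leave out 1 library the call held. All these fits treat the libraries as unpaired. With the replicate number as a block, a pairing that the labels do not give, the log2 fold change was -0.61 (adjusted p = 1.3e-07 from the same test).

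*LTBP3* and *LTBP4* have the highest share of G and C of the members, and GC content moved with the comparison across all genes. When tested genes with a mean of at least 1 CPM and a known GC content were split by it into 5 groups of 2592 or 2593 genes, the median log2 fold change was 0.04 in the group of lowest GC (27.8% to 40.5%) and -0.12 in that of highest GC (57.9% to 83.9%), with 0.04, 0.03 and -0.03 between them. A correction for GC content, added after the data were seen, brought *LTBP3* to a log2 fold change of -0.73 (adjusted p = 0.0025 by edgeR's quasi-likelihood test) and *LTBP4* to -0.41 (adjusted p = 0.14). Under it *LTBP1* was at 0.89 (adjusted p = 9.7e-04), *LTBP2* at -1.65 (adjusted p = 5.7e-05) and *FBN1* at 0.61 (adjusted p = 0.018). Of the 5 calls, that of *LTBP4* was therefore the one that the correction removed.

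*FBN1*, the gene of the main fibrillin of adult microfibrils, had the highest level of the members, also per length, and was higher in siLTBP2. Its level was 827, 625 and 597 CPM in siNT against 1321, 952 and 946 CPM in siLTBP2. Every siLTBP2 library exceeded every siNT library, and library 1 was the highest of its group in both. The mean was 683 ± 126 CPM in siNT against 1073 ± 215 CPM in siLTBP2 (SD, n = 3), a 1.57-fold change (log2 fold change 0.65, SE 0.16, 95% interval 0.30 to 1.01, adjusted p = 0.017 by edgeR's quasi-likelihood test). Without siNT replicate 2 the call was lost (log2 fold change 0.59, adjusted p = 0.076), as it was without siNT replicate 3 (0.56, adjusted p = 0.059) and without siLTBP2 replicate 1 (0.48, adjusted p = 0.053). Within a library number, siLTBP2 was at 160%, 152% and 158% of siNT, although the labels do not tie equal numbers to a shared culture. With the replicate number as a block, the log2 fold change was 0.65 (adjusted p = 4.2e-08 by edgeR's quasi-likelihood test). The overlapping noncoding gene ENSG00000274654, on the same strand, took 38 to 77 counts per library, at most 0.155% of the *FBN1* count.

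*FBN2*, the gene of a fibrillin known mainly from developing tissue, did not separate the groups. It was at 53.5, 37.9 and 25.9 CPM in siNT against 54.1, 38.1 and 28.9 CPM in siLTBP2. Each siLTBP2 value lay close to the siNT value of the same library number, at 101%, 101% and 111% of it, although the labels do not tie equal numbers to a shared culture. The mean was 39.1 ± 13.8 CPM in siNT against 40.3 ± 12.8 CPM in siLTBP2 (SD, n = 3), and the log2 fold change was 0.05 (SE 0.26, adjusted p = 0.93 by edgeR's quasi-likelihood test). The 95% interval runs from 69.7% to 153% of the siNT level, and its ends lie near the fitted levels of *LTBP4* (66.7%) and *FBN1* (157%). The spread within each group was large. The highest siNT library was 2.06-fold above the lowest, and 99.7% of the 9397 genes with at least 10 CPM had a smaller ratio among the siNT libraries. The same ratio was 1.18-fold for *LTBP2* and between 1.25-fold and 1.43-fold for the other members. The share of those genes with a smaller ratio was 94.0% for *LTBP1*, 91.3% for *FBN1* and 89.7% for *LTBP4*. It was 72.8% for *LTBP3* and 52.5% for *LTBP2*.

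*FBN2* shares 121173 bases of its locus with *SLC27A6*, a fatty acid transporter gene on the opposite strand. *SLC27A6* was lower in siLTBP2, at 5.84 CPM in siNT against 1.80 CPM in siLTBP2 (log2 fold change -1.70, adjusted p = 0.0017 by edgeR's quasi-likelihood test). Its counts, 57 to 315 per library, came to at most 21.2% of the *FBN2* count. *FBN2* did not follow it, with a log2 fold change of 0.05. The strand setting of the read counting is not given in the sources used here, so any exchange of reads between these genes is uncertain.

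**Figure D2:**
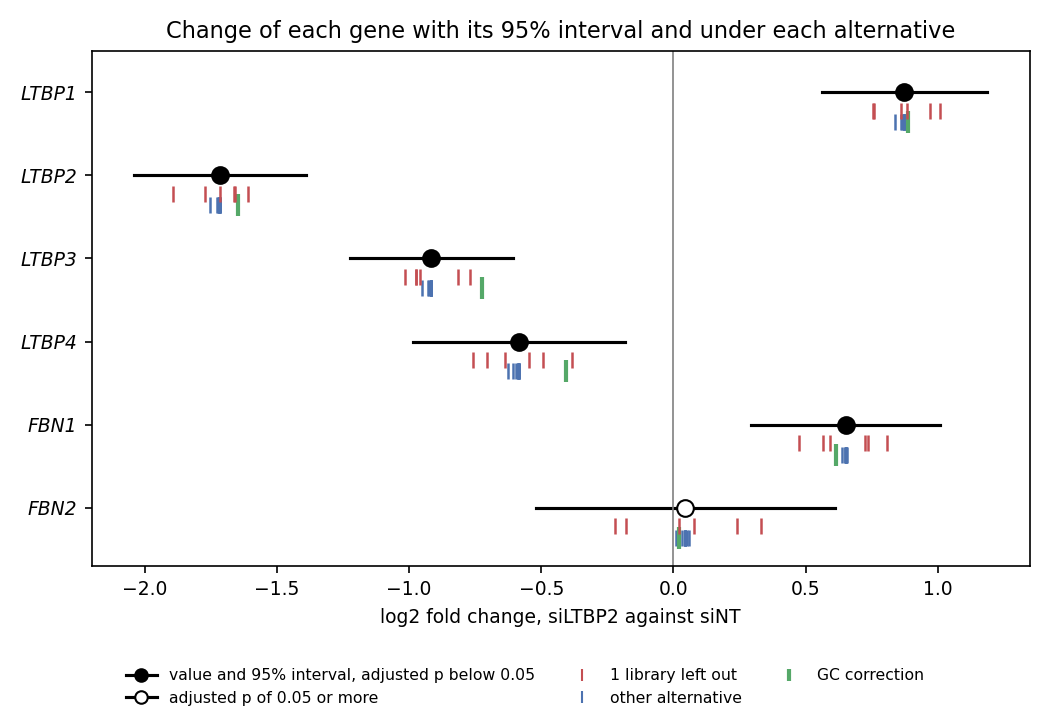
Log2 fold change of siLTBP2 over siNT for each member, with its 95% interval of edgeR's quasi-likelihood fit and, under each interval, ticks for the values with 1 library left out, with the GC correction and with the other alternatives. The intervals of 5 members leave out 0, from -1.72 for *LTBP2* to 0.87 for *LTBP1*, and that of *FBN2* runs from -0.52 to 0.61.

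The exact permutation test over the 6 libraries, two-sided, gave p = 0.1 for each member except *FBN2* (p = 0.7), and 0.1 is the lowest value that 3 libraries against 3 can reach.

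The LTBP genes moved in opposite directions, and the make-up of their summed level differed between the groups while the sum differed by less than the spread. Shares were computed within a library from counts per kilobase of transcript, so they depend neither on depth nor on scaling between libraries. The shares, and the sums and ratios below, were not corrected for GC content, which moved with the comparison. The shares of a library add up to the whole, so a rise in any of them lowers the rest. The share of *LTBP2* was 3.71%, 3.85% and 3.93% in siNT and 0.981%, 1.35% and 1.26% in siLTBP2, a difference in means of -2.63 percentage points (-4.12 with counts not divided by length). *LTBP1* made up 32.0%, 25.1% and 32.9% of the sum in siNT and 58.0%, 51.1% and 60.3% in siLTBP2. Its share thus went from 30.0% ± 4.28 to 56.5% ± 4.79 (SD, n = 3), and it became the leading LTBP in all 3 siLTBP2 libraries.

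In siNT, *LTBP4* led in every library, with 46.2%, 54.8% and 44.6% of the sum, and in siLTBP2 it held 31.8%, 37.5% and 29.0%. *LTBP3* held 18.2%, 16.3% and 18.6% in siNT and 9.23%, 10.0% and 9.45% in siLTBP2. None of the 4 shares overlapped between the groups. The 12 sums, shares and ratios of this kind were each tested by an exact permutation test, two-sided, and for each of the 4 shares p = 0.1, the smallest possible, or 0.13 after Benjamini-Hochberg adjustment over the 12.

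The sum itself was 79.6, 70.9 and 63.8 CPM per kilobase in siNT and 78.3, 75.2 and 56.2 CPM per kilobase in siLTBP2. The ranges overlapped, and the means, 71.4 ± 7.95 and 69.9 ± 11.95 (SD, n = 3), differed by less than the spread between libraries (exact permutation test, two-sided, p = 0.8). The ratio of *LTBP1* to *LTBP2*, both per kilobase, was 7.83 ± 1.15 in siNT and 48.2 ± 10.7 in siLTBP2, and that of *LTBP1* to *LTBP4* was 0.629 ± 0.150 and 1.75 ± 0.363 (SD, n = 3). The ratio of *LTBP3* to *LTBP4*, the members that both fell, was 0.369 and 0.294, with p = 0.2 in the exact permutation test. For the fibrillins, the ratio of *FBN1* to *FBN2* was 17.3 ± 3.85 in siNT and 25.8 ± 4.37 in siLTBP2 (SD, n = 3), without overlap between the groups.

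**Figure D3:**
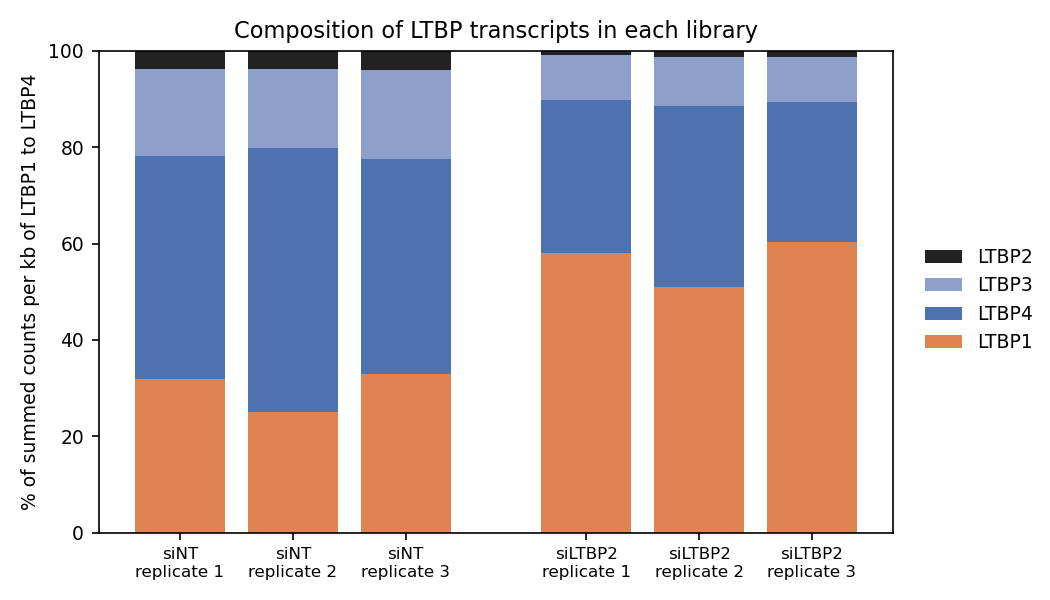
Share of each of *LTBP1* to *LTBP4* in their summed counts per kilobase (percent, stacked to 100) in each of the 6 libraries. *LTBP4* is the largest block in the siNT libraries (44.6% to 54.8%) and *LTBP1* in the siLTBP2 libraries (51.1% to 60.3%), and the block of *LTBP2* is at most 3.93% in any library.

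Levels of different genes can be compared only per length. In siNT the order of the levels per kilobase of canonical transcript was *FBN1* at 58.8 ± 10.8, *LTBP4* at 34.7 ± 5.51, *LTBP1* at 21.4 ± 3.85, *LTBP3* at 12.6 ± 1.59, *FBN2* at 3.58 ± 1.27 and *LTBP2* at 2.73 ± 0.223 CPM per kilobase (SD, n = 3). *FBN2* and *LTBP2* did not differ beyond the spread of their libraries, and all other neighbours in the order did. The targeted gene was thus among the least abundant members before any knockdown. Per kilobase of coding sequence, the siNT ranges of *LTBP1* and *LTBP4* overlapped as well. In siLTBP2 the order was *FBN1* at 92.4 ± 18.5, *LTBP1* at 39.2 ± 5.80, *LTBP4* at 23.1 ± 6.15, *LTBP3* at 6.69 ± 1.21, *FBN2* at 3.69 ± 1.17 and *LTBP2* at 0.831 ± 0.164 CPM per kilobase (SD, n = 3). *LTBP1* and *LTBP4* changed places, and no neighbours overlapped. *FBN2* was on average 1.31-fold above *LTBP2* in siNT and 4.44-fold above it in siLTBP2.

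**Figure D4:**
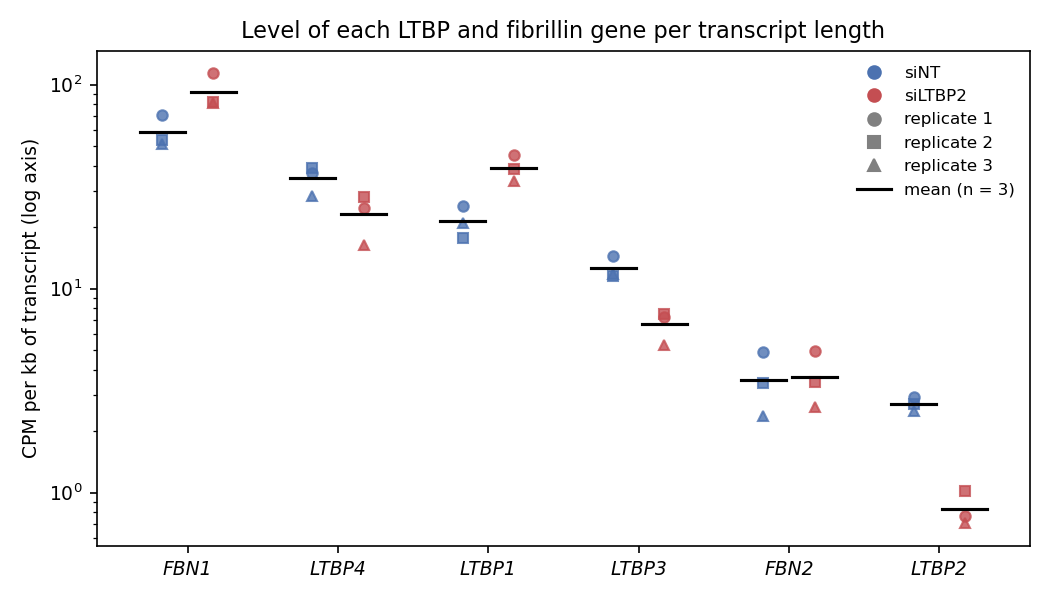
Level per kilobase of canonical transcript (CPM per kilobase, log axis) of the 6 members in siNT and siLTBP2, with a point per library and the group mean. *FBN1* is highest in both groups (58.8 and 92.4 on average) and *LTBP2* lowest (2.73 and 0.831), and *LTBP1* lies below *LTBP4* in siNT and above it in siLTBP2.

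Across the 6 libraries, members that moved in the same direction had correlated log2 levels, and *FBN2* stood apart. *LTBP1* and *FBN1* had a Pearson correlation of 0.952, *LTBP2* and *LTBP3* one of 0.963, *LTBP3* and *LTBP4* one of 0.888 and *LTBP2* and *LTBP4* one of 0.831. *LTBP1* and *LTBP2* had one of -0.880. *FBN2* had 0.0016 with *LTBP2*, 0.213 with *LTBP3*, 0.356 with *LTBP1*, 0.406 with *LTBP4* and 0.563 with *FBN1*. These describe 6 points that share the difference between the groups and are given without a test. Among 12384 tested genes with a symbol and a mean of at least 1 CPM, those whose levels ran most like *LTBP2* were *ASPHD1*, *SLC12A8* and *JAM3*, each with a correlation of 0.998. *SLC12A8* was at 95.8 CPM in siNT against 37.6 CPM in siLTBP2, a log2 fold change of -1.35. For *LTBP1* they were *EHBP1* (0.999), *S100A11* (0.997) and *MAN2A1* (0.996), and for *LTBP3* they were *PLXNB1* (0.999), *BCL9* (0.998) and *SYT11* (0.998).

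*LTBP4* ran most like *ALDH3B1* (0.999), *NIPSNAP1* (0.998) and *TGM2* (0.997). *TGM2* encodes the enzyme transglutaminase 2, which crosslinks matrix proteins, and fell from 516 to 266 CPM on average. *FBN1* ran most like *PIKFYVE* (0.997), *NIPBL* (0.995) and *MACF1* (0.992). For *FBN2* the genes were *COL12A1* (0.991), a collagen found on the surface of collagen fibrils, with *TNFRSF10A* (0.989) and *GABPB1-IT1* (0.988). None of these 3 passed the test between the groups (log2 fold changes 0.04, 0.04 and -0.01), as *FBN2* did not. With 6 libraries, very high correlations are common among so many genes, and the genes are named only as the nearest by this measure.

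The other genes of microfibrils and of TGF-beta storage were described from 4 lists, written with earlier results of these data known. Beside them stand the 9.76% of all tested genes that passed as higher and the 9.51% that passed as lower, and the median log2 fold change of all genes was -0.01. Of 22 partners of microfibrils and elastic fibres, 15 were tested, of which 5 were higher, none was lower and 10 did not pass, with a median of 0.25. *LOX*, the enzyme that crosslinks collagen and elastin, was at 179, 143 and 153 CPM in siNT against 384, 333 and 360 CPM in siLTBP2 (log2 fold change 1.18, SE 0.11, adjusted p = 7.6e-05 by edgeR's quasi-likelihood test). *FN1*, the gene of fibronectin, on whose fibrils LTBPs and fibrillin are first laid down, rose from 1164 ± 137 to 1969 ± 152 CPM (SD, n = 3; log2 fold change 0.76, adjusted p = 0.0016 from the same test). *EFEMP2*, which brings lysyl oxidase to elastin, rose from 116 to 159 CPM on average (0.46), and *MFAP3*, a microfibril-associated protein, from 34.8 to 47.0 CPM (0.44). In all 4 the libraries of the groups did not overlap, and these 4 were picked as the largest changes that passed. Of the 15 tested genes of the list, 7 did not overlap, and of all genes tested 37.0% did not.

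The remaining member of that list that passed was *LOXL1*, at 210 CPM in siNT against 275 CPM in siLTBP2 (log2 fold change 0.39). The list was not fully expressed in these cells. *FBN3*, *MFAP2* and *MFAP5* had no count in any library. *ELN*, the gene of elastin, had at most 1 count in a library, *BGN* at most 4, *EMILIN2* at most 5 and *FBLN2* at most 6. Elastin transcripts were thus at or under the detection limit in CCD18Co in both groups.

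Of 17 genes of latent TGF-beta and its activation, 15 were tested, with 4 higher, 5 lower and 6 that did not pass (median 0.19). Of the ligands, *TGFB1* was at 342, 225 and 309 CPM in siNT against 385, 310 and 346 CPM in siLTBP2, with overlapping groups (log2 fold change 0.25, adjusted p = 0.28 by edgeR's quasi-likelihood test). *TGFB1* passed only with the replicate number as a block, a pairing that the labels do not give (0.26, adjusted p = 0.0072 from the same test). *TGFB2* was at 9.51, 8.26 and 6.21 CPM in siNT against 4.61, 4.06 and 6.19 CPM in siLTBP2, and fell by 0.69 on the log2 scale (adjusted p = 0.035 from the same test). *TGFB3* was at or below 0.987 CPM in every library, and its log2 fold change was 0.21 (adjusted p = 0.62). The call of *TGFB2* was lost without replicate 1 of siNT (-0.55), replicate 2 of siNT (-0.66), replicate 1 of siLTBP2 (-0.64) or replicate 2 of siLTBP2 (-0.57).

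Among the proteins that hold or release latent TGF-beta, *LRRC32*, which presents it on the cell surface, had the largest log2 fold change, 1.88 (adjusted p = 0.0012 by edgeR's quasi-likelihood test), at a low level of 0.344 CPM in siNT against 1.27 CPM in siLTBP2. *THBS1*, the gene of thrombospondin-1, an activator of latent TGF-beta, was at 6064, 4671 and 5253 CPM in siNT against 2130, 2053 and 2235 CPM in siLTBP2. It fell by 1.32 on the log2 scale (adjusted p = 1.0e-04 from the same test). *TGM2*, which crosslinks LTBP1 into the matrix, was at 561, 618 and 368 CPM in siNT against 294, 344 and 160 CPM in siLTBP2 (log2 fold change -0.96, adjusted p = 0.025), and lost its call without siNT replicate 1 (-0.90) or siNT replicate 2 (-0.80). *ITGB1*, the beta chain shared by many matrix-binding integrins, rose from 715 ± 43.8 to 1335 ± 17.7 CPM (SD, n = 3; log2 fold change 0.90, adjusted p = 1.8e-04). The integrin genes *ITGB6* and *ITGB8*, whose products activate latent TGF-beta together with the alpha-v chain, had at most 3 counts and at most 1 count in a library. The number of genes of this list that passed was 9 in all, and 5 without siNT replicate 1. Over all genes the number that passed was 3261, and 2204 without that library.

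Some ADAMTS and ADAMTS-like proteins bind fibrillin, and several are known from inherited disorders of microfibrils. The listing of a gene here does not state that its product binds fibrillin. Of 10 listed, 6 were tested, of which 3 were higher, 1 was lower and 2 did not pass (median 0.43). *ADAMTSL1* rose from 2.49 ± 0.839 to 9.77 ± 0.690 CPM (SD, n = 3; log2 fold change 1.96, adjusted p = 2.4e-04 by edgeR's quasi-likelihood test). *ADAMTSL5* was at 18.6, 16.9 and 17.2 CPM in siNT against 25.3, 25.2 and 24.8 CPM in siLTBP2, with little spread within either group (0.52, adjusted p = 0.0036). *ADAMTS19* was at 19.5 CPM in siNT against 8.69 CPM in siLTBP2 (-1.17, adjusted p = 0.012). *ADAMTS6* was at 8.46 and 14.9 CPM (0.82, adjusted p = 0.022) and lost its call without siNT replicate 1 (0.62) or siLTBP2 replicate 2 (0.81). *ADAMTS10*, *ADAMTS17* and *ADAMTSL2* had at most 2 counts in a library and *ADAMTSL3* at most 1.

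The response to TGF-beta was described by a list of 23 receptors, SMADs and target genes, all tested. Of these, 5 were higher, 5 were lower and 13 did not pass, with a median of 0.12, so the list as a whole had no common direction. The receptor gene *TGFBR2* rose from 412 ± 21.8 to 816 ± 56.2 CPM (SD, n = 3; log2 fold change 0.99, adjusted p = 1.2e-04 by edgeR's quasi-likelihood test). Of the targets, *TAGLN*, an actin-binding protein also known from smooth muscle, was at 75.3, 91.5 and 86.0 CPM in siNT against 146, 172 and 245 CPM in siLTBP2 (1.16, adjusted p = 0.0010). The sum of the smooth muscle markers given above, which does not hold *TAGLN*, was higher in the same libraries.

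*IGFBP3*, another target and a carrier of insulin-like growth factors, moved the other way, from 239, 212 and 195 CPM in siNT to 71.8, 71.0 and 64.7 CPM in siLTBP2 (log2 fold change -1.64, adjusted p = 1.0e-05 by edgeR's quasi-likelihood test). *PMEPA1*, a target that restrains the pathway, was at 8.76 ± 3.50 CPM in siNT against 4.06 ± 1.82 CPM in siLTBP2 (SD, n = 3; -1.11, adjusted p = 0.035), and did not pass without replicate 1 of siNT (-0.75), replicate 2 of siNT (-1.27), replicate 2 of siLTBP2 (-1.03) or replicate 3 of siLTBP2 (-0.86), nor with all libraries under DESeq2 (-1.11, adjusted p = 0.078). The number that passed in this list was 10 in all, 6 without siNT replicate 2 and 5 without siLTBP2 replicate 2. Over all genes it was 3261, 2444 and 2158 in the same settings.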

How the data were processed

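RNA sequencing of 6 libraries of CCD18Co fibroblasts was used, 3 siNT and 3 siLTBP2. Libraries were stranded total RNA depleted of ribosomal RNA. According to the submitters' processing notes, bcl2fastq, STAR 2.7.1a and HTSeq 0.11.2 were used with GRCh38. The authors deposited raw counts per gene, without normalization, beside a gene start position. The annotation release is not given in the sources used here, nor is the strand setting of the counting. Of the 60663 gene identifiers, 60462 are in GENCODE 44, and 95.7% of these have the same start there, with all 6 members among them. Canonical transcripts of GENCODE 44 gave lengths, GC content and sequences. No row lacked a gene.

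Genes kept by filterByExpr (16920, with 99.9% of the counts) were scaled by TMM and tested with edgeR 4.0.16 in R 4.3.3 by the quasi-likelihood test, two-sided and without a block, with Benjamini-Hochberg adjustment over all of them. The study's own likelihood ratio test was an alternative. A gene passed at an adjusted p below 0.05. The standard error (SE) was taken as the size of the log2 fold change over the square root of F. The members and the lists were chosen with earlier results of these data known. Genes named were the 6 members, up to 4 genes of largest absolute log2 fold change among those that passed in each list, the 3 TGF-beta ligands, the 3 genes most correlated with each member in log2 CPM (prior count 2), genes that overlap a member and markers. Values of some genes that this rule names are not reported here. *LOXL1* and the undetected list genes were named after their values were seen.

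Alternatives were the likelihood ratio test, DESeq2 1.42.0, other scaling factors, filters and thresholds, the replicate number as a block and the omission of each library in turn. After the data had been seen, 3 were added: a correction for GC content, one for transcript length and the share difference within a replicate number. Within a group, libraries differed by more than sampling noise (chi-square per degree of freedom 24.6 to 48.1). The steps were tested on simulated data of siLTBP2 against siNT with 16664 genes run, where 95% of 100 genes changed 2-fold, 95.5% of 89 genes changed 4-fold and 0.091% of the unchanged genes were called.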

Additional observations from a re-analysis of the deposited data

How the results depend on the processing

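At an adjusted p of 0.05, the calls of *LTBP1*, *LTBP2* and *LTBP3* held under every alternative fit. With 1 library left out, the log2 fold change was 0.76 to 1.01 for *LTBP1*, -1.89 to -1.61 for *LTBP2* and -1.02 to -0.77 for *LTBP3*. Of the members, only *LTBP2* was past the stricter limits of an adjusted p below 0.01 and a fold above 2. Leaving out 1 library gave -0.76 to -0.38 for *LTBP4*, 0.48 to 0.81 for *FBN1* and -0.22 to 0.33 for *FBN2*, whose sign turned without siNT replicate 3 (-0.18) and without siLTBP2 replicate 1 (-0.22). *LTBP4* also lost its call with upper-quartile factors (-0.59, adjusted p = 0.061), with a filter of 1 CPM in 3 libraries (-0.59, adjusted p = 0.055) and with the GC correction (-0.41, adjusted p = 0.14), all from edgeR's quasi-likelihood test. The cause was not tested. At an adjusted p of 0.05, *FBN1* kept its call under all alternative fits that use all 6 libraries.

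Over all genes, 3261 were called and leaving out 1 library gave 2158 to 2781 (2158 without siLTBP2 replicate 2), with 1042 to 1449 higher and 1078 to 1332 lower, and deregulated genes numbered 308 to 405. At an adjusted p below 0.01, 1550 genes passed with no minimum fold and 434 with a fold above 2. Without the low-count filter, 680 were deregulated. List counts with 1 library left out were 4 to 6 for microfibril partners, 5 to 8 for latent TGF-beta, 3 to 5 for the ADAMTS list and 5 to 10 for the TGF-beta response.

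The labels do not tie equal library numbers to a shared culture. Deviations from the group means correlated at 0.30, 0.08 and 0.43 within a number and at -0.39 to 0.10 between numbers. These values leave it undecided whether libraries of 1 number are paired. With the replicate number as a block, 6131 genes were called (3109 higher, 3022 lower), 636 were deregulated, and 10 microfibril partners and 18 TGF-beta response genes passed. No member's call changed under the block, with *LTBP4* at -0.61 (adjusted p = 1.3e-07) and *FBN2* at 0.06 (adjusted p = 0.60), and *TGFB1* passed at 0.26 (adjusted p = 0.0072).

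The difference in the share of *LTBP2* was -2.71 to -2.52 percentage points with 1 library left out and -4.12 with counts not divided by length. Levels per kilobase of coding sequence moved for 4 members by more than the spread, without a change in the order of the means. Depth did not limit the members, but 3 libraries a group cannot go below p = 0.1 in a permutation test.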
